A study of Mus musculus and Homo sapiens with 59 samples.

Results

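The transcripts of 10 genes that move or sense cellular calcium were followed through cells whose plasma membrane had been permeabilized. They were the endoplasmic reticulum (ER) pump Atp2a2, the plasma membrane pumps Atp2b1 and Atp2b4, the sodium-calcium exchanger Slc8a1, the inositol trisphosphate receptors Itpr1 and Itpr3, the ER calcium sensors Stim1 and Stim2, and the channel subunits Orai1 and Orai3. They were chosen by name for their roles in calcium handling, with earlier results of these data known. All 10 were present among the 19407 genes of the mouse table and, in capitals, among the 22192 genes of the human table. Cytosolic calcium is kept far below that of the medium by pumps that push it out of the cell or into the ER. Inositol trisphosphate receptors let it back out of the ER, and when the ER store runs low the STIM proteins in its membrane reach the plasma membrane and open ORAI channels there. A hole in the plasma membrane lets extracellular calcium run into the cell, so these proteins are the machinery that such an influx meets.

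The study measured polyadenylated RNA in 59 libraries: 16 of LLC mouse lung carcinoma cells, 35 of NIH3T3 mouse fibroblasts, 4 of HT29 human colorectal carcinoma cells and 4 of BxPC3 human pancreatic carcinoma cells. Membranes were opened by the dimerizer AP20187 (100 nM, 1 h) in cells with hMLKL1–181-2Fv, a fragment of the necroptosis effector MLKL fused to a dimerizable domain. They were also opened by 4OHT (50 nM, 2.5 h) in cells with mGSDMD1-276-HBD, a fragment of the pyroptosis pore protein GSDMD fused to a hormone-binding domain. The detergent digitonin was given to parental LLC and NIH3T3 cells (55 µg/mL, 3 h) and to HT29 and BxPC3 cells (40 µg/mL, 2 h). Each treated group was set against untreated cells of its own kind. The MLKL comparisons were NIH3T3 MLKL cells in calcium-free DMEM, the same cells in complete medium, siPKC and siCTR cells (an siRNA whose target isoform the labels do not name, and a control siRNA), p65ko cells (a p65 knockout), noko cells (its control), and LLC MLKL cells. All siRNA and knockout groups carry the MLKL construct in NIH3T3 cells. The GSDMD comparisons were LLC and NIH3T3 GSDMD cells, and the digitonin comparisons were in the 4 parental lines. Parental NIH3T3 cells given AP20187 and parental LLC cells given 4OHT show what the drugs do without a construct. The labels do not say whether construct or knockout lines are clones, nor whether replicates come from separate cultures. The spread behind every p-value is therefore that between libraries and may be technical.

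Of 30 groups, 29 held 2 libraries and siPKC cells given AP20187 held 1, for which no SD exists. With so few libraries unchanged genes can separate too. Groups said below not to overlap are therefore described only, and the share of all genes that do not overlap is not reported here. The correlation of log2 values between the libraries of a group, over genes, lay between 0.992 and 0.997. Levels are in TPM, each transcript's length-scaled share of its library, and can be compared between genes. TPM hold no sequencing depth, so depth is unknown. In bulk RNA such as this, fewer cells of a kind and less RNA per cell cannot be told apart. Of 8 fibroblast and 8 epithelial markers, LLC libraries held 4 fibroblast (Col3a1, Pdgfra, Fn1 and Vim) and 3 epithelial ones (Krt8, Krt18 and Krt19) at 1 TPM or more in most libraries, and NIH3T3 libraries held all 8 fibroblast and 0 epithelial ones. HT29 and BxPC3 libraries each held all 8 epithelial markers, and BxPC3 libraries also 3 fibroblast ones (COL1A1, FN1 and VIM). Rela, which encodes p65, had 19.9 and 18.9 TPM in AP20187-treated and 13.6 and 14.1 TPM in untreated p65ko libraries, against 94.8 and 91.7 TPM in treated and 49.7 and 49.2 TPM in untreated noko libraries. Among protein kinase C genes, Prkca was far lower in siPKC than in siCTR libraries, at 6.72 TPM against 33.4 and 31.1 TPM with AP20187, and at 7.46 and 8.05 TPM against 30.97 and 32.7 TPM untreated. Other isoforms differed less between the untreated siPKC and siCTR cells. Prkci was lower (log2 difference -0.40, limma adjusted p = 7.26e-07). Prkcd (0.59, limma adjusted p = 1.34e-07) and Prkce (0.25, limma adjusted p = 0.00956) were higher.

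Promoter sequence, 250 bases before to 50 after the transcription start, was found in RefSeq (GRCm38.p6) for 8 of the 10 genes, and is shown for 3 of them. These are the genes called most often in a single direction in the mouse comparisons below, Atp2b1 upward and Orai1 and Orai3 downward. Sequences run 5′ to 3′, and capitals mark GC boxes (GGGCGG, or CCGCCC on the other strand) and CCAAT boxes (CCAAT, or ATTGG on the other strand). Atp2b1, which has 2 listed starts, is shown at the first of them, chr10:98914392-98914691 on the plus strand. The Orai1 window is chr5:123014824-123015123 on the plus strand, and that of Orai3 chr7:127769565-127769864 on the plus strand.
Atp2b1: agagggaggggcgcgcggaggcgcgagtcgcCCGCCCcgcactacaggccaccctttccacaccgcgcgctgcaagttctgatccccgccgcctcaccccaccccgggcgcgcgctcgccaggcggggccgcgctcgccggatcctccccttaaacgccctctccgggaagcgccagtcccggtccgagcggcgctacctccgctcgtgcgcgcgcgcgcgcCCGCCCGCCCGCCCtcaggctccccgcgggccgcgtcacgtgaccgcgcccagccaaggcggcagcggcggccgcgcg
Orai1: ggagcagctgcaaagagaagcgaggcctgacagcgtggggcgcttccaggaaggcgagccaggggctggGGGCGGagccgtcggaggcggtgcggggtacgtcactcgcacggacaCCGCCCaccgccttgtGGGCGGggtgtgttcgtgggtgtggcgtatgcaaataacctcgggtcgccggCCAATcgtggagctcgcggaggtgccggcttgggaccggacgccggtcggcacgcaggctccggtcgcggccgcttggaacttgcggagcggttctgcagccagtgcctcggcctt
Orai3: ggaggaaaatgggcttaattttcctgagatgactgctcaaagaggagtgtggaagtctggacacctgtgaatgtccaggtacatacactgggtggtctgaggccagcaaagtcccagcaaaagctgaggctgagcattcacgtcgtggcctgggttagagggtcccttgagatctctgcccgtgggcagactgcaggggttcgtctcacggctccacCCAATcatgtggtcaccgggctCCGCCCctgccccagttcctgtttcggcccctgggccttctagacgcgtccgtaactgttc

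The Atp2b1 window was 79.3% G and C and held 4 GC boxes, with no CCAAT box. The Orai1 window was 70.3% G and C with 3 GC boxes and 1 CCAAT box. The Orai3 window was 57.7% G and C with 1 GC box and 1 CCAAT box. Over all 9 windows of the 8 genes, 7 held a GC box, against 35.7% of 32851 mouse promoters of the same length, and 3 held a CCAAT box, against 37.4%. The NFAT core GGAAA (or TTTCC) stood in 4, against 61.3% of all promoters, the cAMP response core TGACG (or CGTCA) in 4, against 20.8%, and the AP-1 site TGACTCA (or TGAGTCA) in 0, against 5.2%. Both strands were searched and GC boxes that share letters were each counted. A match in a window is a description of letters only. In the mm10 annotation (GENCODE vM21) Atp2b1 lies on chromosome 10 at 98914406 to 99026143 on the plus strand, Atp2a2 on chromosome 5 at 122453513 to 122502225 on the minus strand. Orai1 lies on chromosome 5 at 123015074 to 123030456 on the plus strand and Orai3 on chromosome 7 at 127769815 to 127775150 on the plus strand. No exon of another gene overlaps Atp2b1, Stim1, Stim2 or Orai3. Exons of Itpr3 share 233 bases with the opposite-strand gene Itpr3os. Those of Atp2a2 share 83 bases with the opposite-strand gene Gm43361. Whether quantification used strand is not given in the sources used here.

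In untreated parental cells of all 4 lines the ER pump was by far the most abundant of the 10 transcripts, and the exchanger was nearly absent. Atp2a2 averaged 137 ± 5.50 TPM in LLC cells and 159 ± 49.2 TPM in NIH3T3 cells (mean ± SD, n = 4 each), and ATP2A2 averaged 149 ± 1.33 TPM in HT29 and 151 ± 3.24 TPM in BxPC3 cells (n = 2 each). In NIH3T3 cells the order ran on through the plasma membrane pump Atp2b1 (45.6 ± 17.9 TPM), Itpr3 (25.3 ± 10.3 TPM), Orai1 (16.9 ± 3.91 TPM), Stim2 (16.5 ± 3.12 TPM), Stim1 (10.9 ± 3.69 TPM), Orai3 (10.2 ± 2.15 TPM), Itpr1 (5.33 ± 3.67 TPM) and Atp2b4 (1.44 ± 0.0836 TPM). From Atp2b1 down to Itpr1 each pair of neighbours in that order lay within their summed SDs. Those SDs span the untreated libraries of the AP20187 and digitonin experiments, which differed from each other as described below. Mean Atp2b1 lay above mean Itpr3 in both sets (61.0 against 34.2 TPM, and 30.2 against 16.3 TPM). Itpr3 lay above Orai1 in the AP20187 experiment (34.2 against 13.8 TPM) and below it in the digitonin experiment (16.3 against 20.0 TPM). In LLC cells Itpr3 (45.2 ± 2.29 TPM) and Atp2b1 (42.2 ± 4.47 TPM) lay within their spread of each other, followed by Orai3 (17.1 ± 2.21 TPM), Stim2 (10.1 ± 1.42 TPM), Orai1 (7.30 ± 1.12 TPM), Stim1 (5.69 ± 0.621 TPM) and Itpr1 (3.98 ± 0.367 TPM). Of these LLC neighbours, Orai1 and Stim1 also lay within their summed SDs.

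HT29 cells had ITPR3 at 59.6 ± 1.55 TPM and ATP2B1 at 38.3 ± 0.164 TPM, then STIM2, ORAI1 and STIM1 at 17.8 ± 1.85, 17.4 ± 0.133 and 16.8 ± 0.422 TPM, of which STIM2 lay within its SD of the others. BxPC3 cells had ORAI1 as the second transcript at 40.9 ± 0.206 TPM, ahead of ITPR3 (31.5 ± 0.161 TPM), ATP2B1 (19.3 ± 0.777 TPM), STIM2 (13.8 ± 0.154 TPM), ATP2B4 (11.95 ± 0.628 TPM), STIM1 (9.58 ± 0.0496 TPM) and ORAI3 (7.85 ± 0.334 TPM). Atp2b4, the other plasma membrane pump, was listed at 0 in all 4 of these LLC libraries. Slc8a1, which trades sodium for calcium across the plasma membrane, stayed at or below 0.0255 TPM in every NIH3T3 library, 0.363 TPM in every LLC library and 0.257 TPM in every human one. ITPR1 did not exceed 0.353 TPM in the human lines. Neither Slc8a1 nor human ITPR1 reached the level of 1 TPM in 2 libraries that a test required, and neither has a fold change here.

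**Figure D1:**
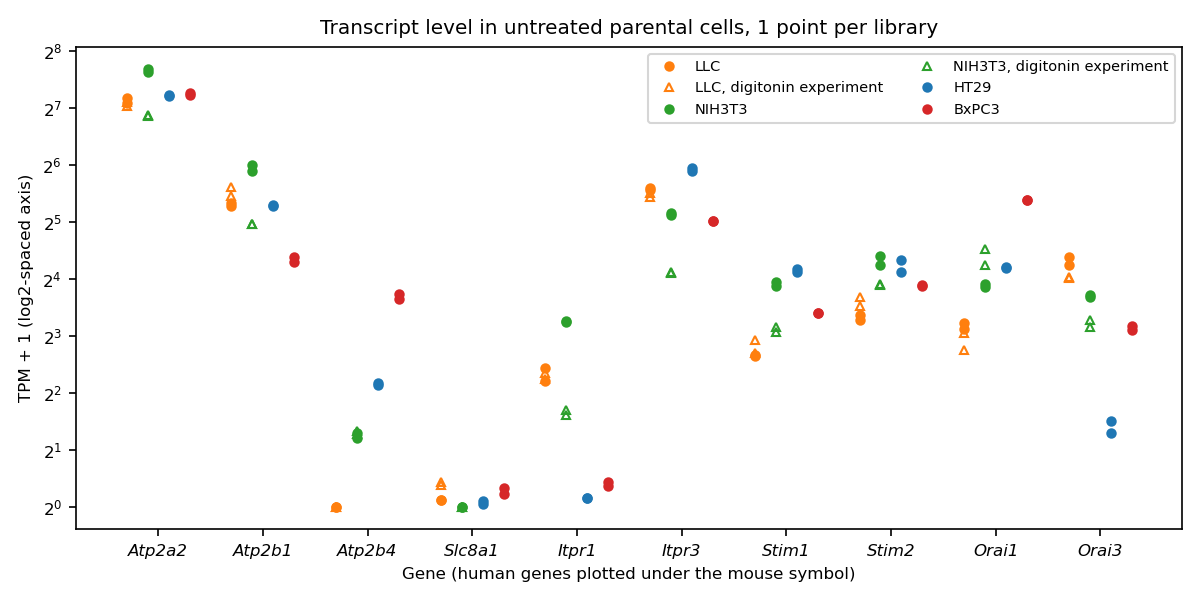
Untreated parental TPM of the 10 genes (TPM + 1 on a log2-spaced axis) in LLC, NIH3T3, HT29 and BxPC3 libraries, 1 point per library, with triangles for the untreated libraries of the digitonin experiments. Atp2a2 lies above all other members in every line, and the NIH3T3 points of Atp2a2 spread from 115 to 205 TPM.

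Between the mouse lines, 8 of 9 tested members differed (limma on log2(TPM + 1), Benjamini-Hochberg adjusted p under 0.05), 2 higher and 6 lower in LLC cells, where 85.1% of all 12312 tested genes differed. Orai3 had 18.04 and 19.8 TPM in the LLC libraries of the 4OHT experiment and 15.5 and 15.2 TPM in those of the digitonin experiment, against 12.2 and 11.9 TPM in the NIH3T3 libraries of the AP20187 experiment and 8.77 and 7.94 TPM in those of the digitonin experiment. The lines did not overlap (0.71, adjusted p = 2.45e-11). Orai1 went the other way, with 7.76 and 8.37 and 5.74 and 7.34 TPM in LLC against 13.5 and 14.1 and 21.97 and 18.1 TPM in NIH3T3 libraries (-1.10, adjusted p = 5.9e-13), again with no overlap. Thus Orai3 exceeded Orai1 in all 4 untreated parental LLC libraries. Itpr3 was also higher in LLC cells (0.90, adjusted p = 3.28e-23), and Stim1 (-0.78, adjusted p = 1.18e-12), Stim2 (-0.64, adjusted p = 7.3e-14) and Atp2b4 (-1.29, adjusted p = 2.68e-20) were lower. The sizes for Stim1 and Itpr3 varied with the experiment. Mean Stim1 was 5.32 TPM in LLC and 14.0 TPM in NIH3T3 cells of the 4OHT and AP20187 experiments. It was 6.06 and 7.70 TPM in those of the digitonin experiments. Mean Itpr3 was 46.9 and 34.2 TPM in the former and 43.5 and 16.3 TPM in the latter. The p-values do not measure this spread between experiments. Atp2a2 (-0.16, adjusted p = 1.23e-07) and Itpr1 (-0.14, adjusted p = 0.00475) passed as lower although the lines' libraries overlapped, and the Itpr1 call was lost without LLC untreated replicate 1 (-0.082, adjusted p = 0.0826). Both depended on which experiment gave the libraries: within the digitonin experiments alone Atp2a2 was 0.20 and Itpr1 0.64 higher in LLC cells on the log2 scale, whereas within the AP20187 and 4OHT experiments they were -0.52 and -0.92. The Itpr1 call was also lost after quantile normalization (-0.025, adjusted p = 0.582). Atp2b1 did not pass over all libraries (-0.03), passed as lower after quantile normalization, median centring and removal of the length trend (-0.17 to -0.063), and took opposite signs in the experiments, 0.58 in the digitonin ones and -0.64 in the others.

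Of the 8 members tested between the human lines, 4 were higher and 3 lower in HT29 than in BxPC3 cells, where 80.2% of all genes differed. ORAI3 had 1.86 and 1.47 TPM in HT29 against 7.61 and 8.09 TPM in BxPC3 libraries (-1.73, adjusted p = 1.91e-06). ATP2B4 had 3.44 and 3.53 against 12.4 and 11.5 TPM (-1.53, adjusted p = 8.33e-07). ORAI1 had 17.4 and 17.5 against 40.7 and 41.04 TPM (-1.18, adjusted p = 2.82e-06). These 3 entry and extrusion genes were thus the ones lower in HT29 cells. ATP2B1 had 38.2 and 38.4 TPM in HT29 against 19.9 and 18.8 TPM in BxPC3 libraries (0.95, adjusted p = 2.12e-06). ITPR3 (0.90, adjusted p = 8.62e-07), STIM1 (0.75, adjusted p = 1.52e-05) and STIM2 (0.34, adjusted p = 0.00334) were higher in HT29 cells as well. No library of either line overlapped the other line's for these 7 genes, and ATP2A2 did not pass (-0.02) except after quantile normalization (-0.23, adjusted p = 0.00106).

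The plasma membrane pump Atp2b1 rose in all 12 comparisons of permeabilized with untreated cells, and the ER pump Atp2a2 rose in 7 of them and fell in 1. The channel subunit Orai3 fell in 9 and rose in 1, and Orai1 fell in 7. Those 12 leave out calcium-free medium and the drugs in parental cells. Over all 15 treatment comparisons, 34 of the member tests passed as higher and 27 as lower, and centring each library on its median, which moves the whole distribution, made these 57 and 16. Across the 10 mouse comparisons of permeabilized cells, 194 of 9929 genes tested in all of them (1.95%) rose in all 10 as Atp2b1 did, 608 (6.12%) fell in at least 9 as Orai3 did, and 3815 (38.4%) fell in at least 6 as Orai1 did. Such a share is not reported here for Atp2a2, nor for the counts of the other members given below. Those counts describe the members only. Each comparison used its own untreated libraries, so no control was shared among them.

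In NIH3T3 MLKL cells given AP20187, 4 of 9 tested members rose and 1 fell, where 15.8% of all tested genes rose and 16.5% fell, and the members' median was 0.20 against -0.02 for all genes. In siPKC cells 2 of 9 rose and 1 fell, where 10.5% of genes rose and 37.5% fell, with medians of 0.06 and -0.14. In siCTR cells 1 rose and 3 fell (13.7% and 51.8% of genes; medians 0.02 and -0.19). The knockout pair gave equal counts, with 1 rising and 3 falling in p65ko cells (8.99% and 50.4% of genes; medians -0.02 and -0.19) and likewise in noko cells (10.6% and 55.5% of genes; medians -0.04 and -0.22). NIH3T3 GSDMD cells given 4OHT had 1 of 9 higher and 5 lower, where 20.0% of genes rose and 58.6% fell (medians -0.14 and -0.29). Digitonin in NIH3T3 cells raised 7 of 9 and lowered 2, where 39.3% of genes rose and 34.2% fell (medians 0.51 and 0.02).

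LLC GSDMD cells given 4OHT had 4 of 8 tested members higher and 4 lower, where 27.9% of genes rose and 54.0% fell (medians 0.02 and -0.25). LLC MLKL cells given AP20187 had 2 of 8 higher and 0 lower, where 5.48% of genes rose and 2.08% fell (medians 0.10 and -0.01). Digitonin raised 5 of 8 and lowered 1 in LLC cells, where 20.3% of genes rose and 32.2% fell (medians 0.18 and -0.06). In HT29 cells it raised 2 of 8 and lowered 2 (16.5% and 44.0% of genes; medians -0.09 and -0.16), and in BxPC3 cells it raised 4 of 8 and lowered 2 (23.7% and 56.9% of genes; medians 0.06 and -0.37). In the same BxPC3 comparison all 3 tested fibroblast markers rose, with a median of 1.82, and the summed level of the 8 was 149.98 to 153 TPM with digitonin, against 18.99 to 19.1 TPM untreated. The other 5 fibroblast markers were below 1 TPM in at least 3 of the 4 libraries. Of the 8 epithelial markers 5 rose and 1 fell there, and the part of either list in the members' changes was not tested. The median of all genes lay more than 0.1 below 0 in 8 comparisons, from -0.14 in siPKC cells to -0.37 in BxPC3 cells, and a member's fold change near such a median is level with the other genes.

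**Figure D2:**
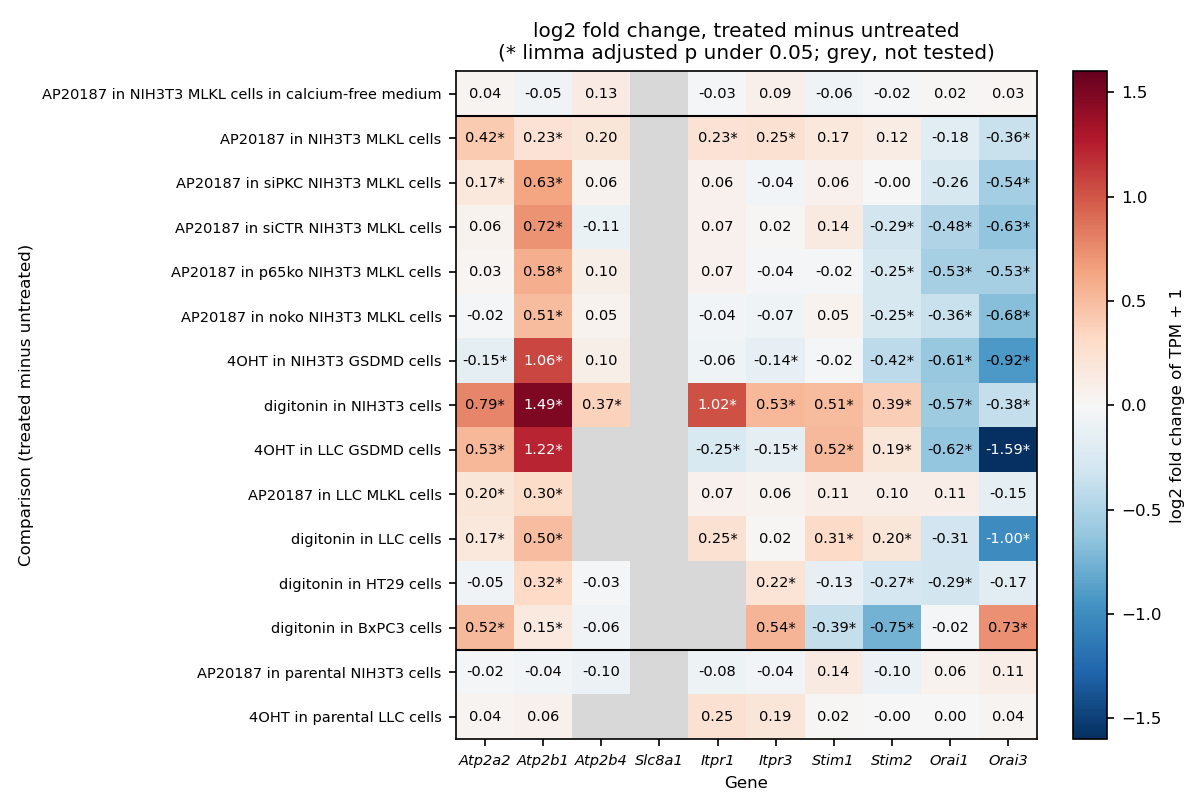
Log2 fold change of log2(TPM + 1), treated over untreated, of each member (columns) in the 15 treatment comparisons (rows), with an asterisk where the limma adjusted p was under 0.05 and grey where the gene was not tested. The Atp2b1 column is positive with an asterisk in 12 comparisons, from 0.15 to 1.49, and the Orai3 column is negative in all 10 mouse comparisons of permeabilized cells, from -1.59 to -0.15.

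Atp2b1 encodes PMCA1, the housekeeping calcium ATPase that exports calcium across the plasma membrane. It had 186 and 182 TPM in NIH3T3 GSDMD cells given 4OHT, against 91.5 and 83.7 TPM untreated (log2 fold change 1.06, SE 0.0476, adjusted p = 1.92e-14). In LLC GSDMD cells it had 90.2 and 85.5 TPM with 4OHT, against 37.9 and 36.3 TPM untreated (log2 fold change 1.22, SE 0.0479, adjusted p = 3.4e-10). Both GSDMD lines thus had higher levels, with no overlap of the libraries. Digitonin gave 86.3 and 87.3 TPM in NIH3T3 cells, against 30.2 and 30.2 TPM untreated (log2 fold change 1.49, SE 0.0477, adjusted p = 4.7e-17). In LLC cells it gave 64.3 and 64.8 TPM, against 48.1 and 43.02 TPM untreated (log2 fold change 0.50, SE 0.0479, adjusted p = 5.49e-06). The NIH3T3 digitonin rise was the highest of the 12, and it was 0.50 (adjusted p = 5.03e-09) when set against the untreated NIH3T3 libraries of the AP20187 experiment, which held 63.1 and 58.9 TPM.

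After MLKL dimerization the log2 fold change of Atp2b1 was 0.23 and 0.30 in cells with no further manipulation and between 0.51 and 0.72 in the siRNA and knockout groups, a contrast that was not tested. NIH3T3 MLKL cells had 58.7 and 55.01 TPM with AP20187, against 47.2 and 49.2 TPM untreated (log2 fold change 0.23, SE 0.0476, adjusted p = 0.00068). LLC MLKL cells had 60.8 and 60.98 TPM, against 49.5 and 49.2 TPM untreated (log2 fold change 0.30, SE 0.0479, adjusted p = 0.0024). The single treated siPKC library had 85.6 TPM with AP20187, against 52.8 and 57.6 TPM untreated (log2 fold change 0.63, SE 0.0584, adjusted p = 2.24e-08). The siCTR cells had 98.5 and 97.5 TPM, against 59.7 and 58.7 TPM untreated (log2 fold change 0.72, SE 0.0477, adjusted p = 3.93e-11). The untreated levels of the 2 siRNA groups were close to each other, and both treated levels stood clear of them. The p65ko cells had 64.2 and 66.4 TPM with AP20187, against 43.7 and 42.96 TPM untreated (log2 fold change 0.58, SE 0.0475, adjusted p = 2.55e-09). The noko cells had 83.6 and 84.4 TPM, against 58.9 and 58.8 TPM untreated (log2 fold change 0.51, SE 0.0476, adjusted p = 1.13e-08). Treated and untreated libraries did not overlap in any of these comparisons.

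In the human lines ATP2B1 had 48.2 and 48.1 TPM in HT29 cells given digitonin, against 38.2 and 38.4 TPM untreated (log2 fold change 0.32, SE 0.0499, adjusted p = 0.00123). BxPC3 cells had 20.8 and 22.3 TPM with digitonin, against 19.9 and 18.8 TPM untreated, the smallest rise of the 12 (log2 fold change 0.15, SE 0.0491, adjusted p = 0.0248). That BxPC3 call was lost without digitonin replicate 2 (0.10, adjusted p = 0.106) or untreated replicate 2 (0.11, adjusted p = 0.14), and with only the 4 BxPC3 libraries in the fit (adjusted p = 0.0786). The other 11 rises held in each of those settings. All 12 were called under quantile normalization and median centring, and all 10 in mouse cells after the trend with transcript length was removed.

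**Figure D3:**
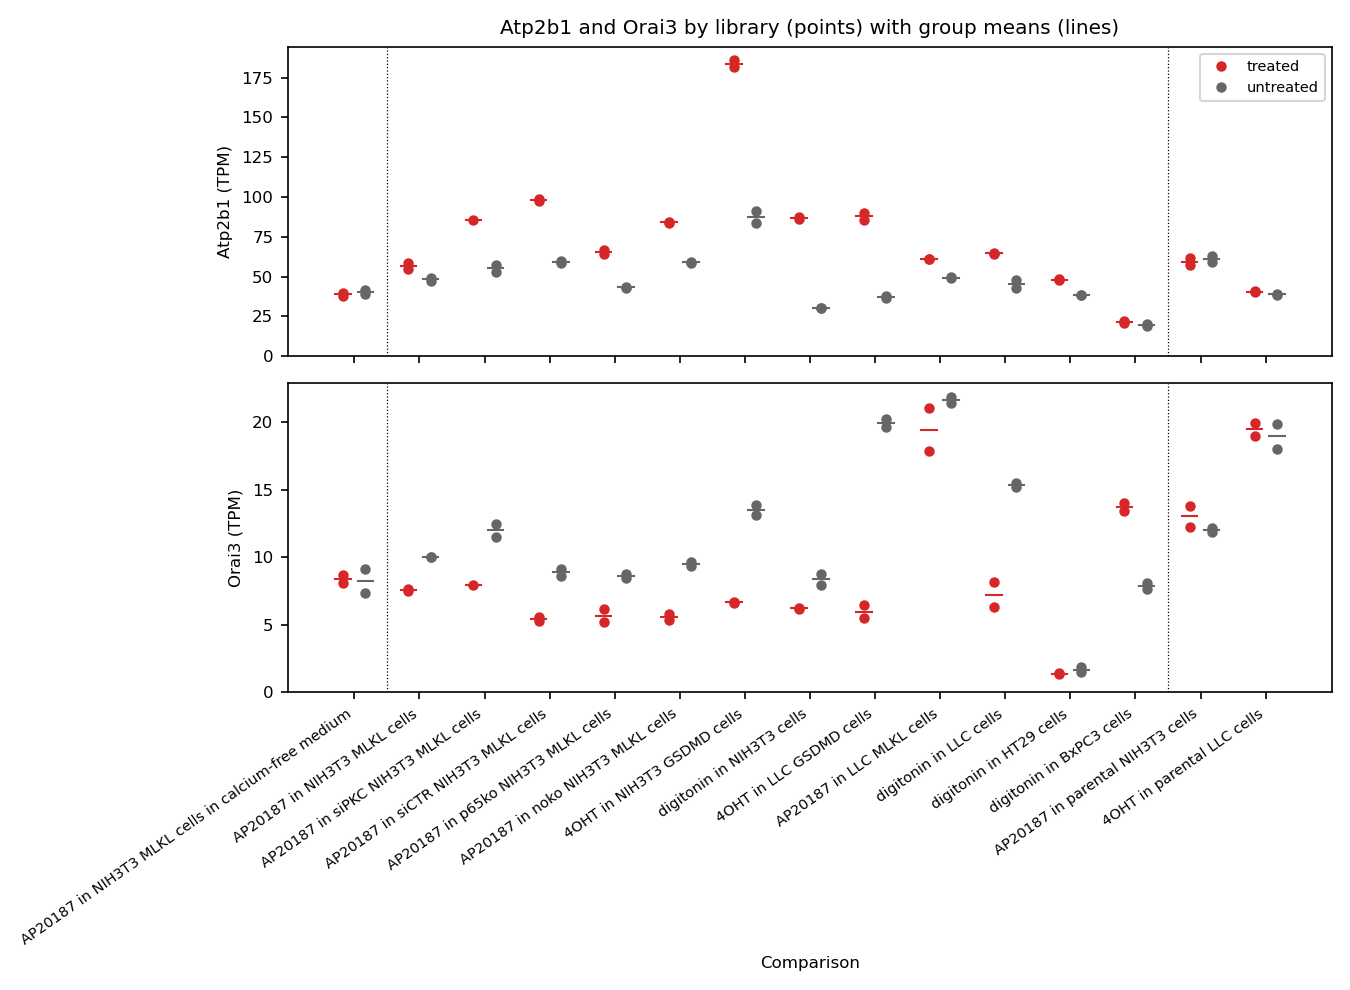
TPM of Atp2b1 and Orai3 in every library of the 15 treatment comparisons, treated in red on the left and untreated in grey on the right of each pair, with dotted lines that set off calcium-free medium on the left and the parental drug controls on the right. Atp2b1 points lie above their untreated partners in all 12 permeabilized comparisons, and Orai3 points lie below theirs except in BxPC3 cells, where treated libraries held 14.04 and 13.4 TPM.

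Atp2a2 encodes SERCA2, which refills the ER with calcium from the cytosol. Its largest rises were in NIH3T3 cells given digitonin, with 199 and 203 TPM against 115 and 117 TPM untreated (log2 fold change 0.79, SE 0.0307, adjusted p = 1.49e-15), and in LLC GSDMD cells given 4OHT, with 231 and 232 TPM against 163 and 156 TPM untreated (log2 fold change 0.53, SE 0.0369, adjusted p = 4.58e-08). BxPC3 cells given digitonin had 213 and 222 TPM, against 153 and 149 TPM untreated (log2 fold change 0.52, SE 0.0338, adjusted p = 6.85e-06). In NIH3T3 MLKL cells AP20187 gave 199.8 and 198 TPM, against 147 and 149.7 TPM untreated (log2 fold change 0.42, SE 0.0306, adjusted p = 5.16e-10), the 4 libraries again falling into separate pairs. The digitonin rise in NIH3T3 cells was not seen against the untreated libraries of the AP20187 experiment, which held 205 and 197 TPM: the change was -0.00125. A smaller rise passed in siPKC cells, with 204 TPM against 176 and 186 TPM untreated (0.17, adjusted p = 0.00115). Another passed in LLC cells given digitonin, with 148 and 153 TPM against 136 and 130.4 TPM untreated (0.17, adjusted p = 0.00201). The LLC MLKL cells had 159 and 155 TPM against 138 and 136 TPM untreated (0.20, adjusted p = 0.00649). This MLKL rise was lost without untreated replicate 2 (adjusted p = 0.0646) or AP20187 replicate 1 (adjusted p = 0.0664), and the siPKC rise with only its own libraries in the fit (adjusted p = 0.0792).

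NIH3T3 GSDMD cells stood apart, with 156 and 157 TPM given 4OHT and 177 and 169.6 TPM untreated, a fall (log2 fold change -0.15, SE 0.0305, adjusted p = 0.000157) that became a rise of 0.12 after median centring and 0.10 after removal of the length trend. The median of all genes there was -0.29, so Atp2a2 lay above it. The changes in siCTR (0.06), p65ko (0.03), noko (-0.02) and HT29 cells (-0.05) did not pass, although their treated and untreated libraries did not overlap. Without AP20187 replicate 2, siCTR cells passed as higher (adjusted p = 0.0293). After median centring Atp2a2 was called higher in all 12 comparisons.

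The other plasma membrane pump, Atp2b4 (PMCA4), lay between 1.13 and 3.82 TPM in NIH3T3 libraries and did not exceed 0.0142 TPM in LLC libraries, where it was not tested. Of the 9 comparisons of permeabilized cells that tested it, only digitonin in NIH3T3 cells passed, with 2.26 and 2.15 TPM against 1.45 and 1.52 TPM untreated (log2 fold change 0.37, SE 0.0869, adjusted p = 0.000726), a direction that turned to -0.40 after removal of the length trend. NIH3T3 MLKL cells had 3.69 and 3.43 TPM with AP20187 against 2.92 and 3.03 TPM untreated (0.20, adjusted p = 0.0918). The human gene, more abundant in BxPC3 cells, had 11.5 and 11.4 TPM there with digitonin against 12.4 and 11.5 TPM untreated (-0.06, adjusted p = 0.433). As deposited the members of this pump pair gave 12 and 1 calls, but Atp2b4 was called higher in 6 of 9 comparisons after quantile normalization and in 5 of 9 after median centring. On the log2(TPM + 1) scale the change of a gene as low as Atp2b4 is understated.

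The release channels Itpr1 and Itpr3, which open on binding inositol trisphosphate, were called in fewer than 7 comparisons each. Itpr1 rose in 3 of 10 and fell in 1, and Itpr3 rose in 4 of 12 and fell in 2. Neither was called in siPKC, siCTR, p65ko, noko or LLC MLKL cells, nor Itpr3 in LLC cells given digitonin, which held 43.4 and 45.1 TPM against 42.3 and 44.7 TPM untreated. These counts depended on scaling: Itpr1 was called higher in 8 and lower in 0 after either quantile normalization or median centring, and Itpr3 higher in 6 and 8 and lower in 0. Itpr3 had 35.4 and 38.8 TPM in NIH3T3 MLKL cells given AP20187, against 30.9 and 31.3 TPM untreated (log2 fold change 0.25, SE 0.0395, adjusted p = 5.48e-05). Itpr1 had 7.60 and 7.95 TPM, against 6.40 and 6.55 TPM untreated (log2 fold change 0.23, SE 0.0520, adjusted p = 0.00172). With only those 4 libraries in the fit the Itpr1 rise did not pass (adjusted p = 0.0839), nor did it after removal of the length trend (0.091, adjusted p = 0.203). In human cells digitonin gave ITPR3 levels of 69.7 and 69.8 TPM in HT29, against 60.7 and 58.5 TPM untreated (log2 fold change 0.22, SE 0.0400, adjusted p = 0.00237). In BxPC3 they were 45.2 and 47.3 TPM, against 31.3 and 31.6 TPM untreated (log2 fold change 0.54, SE 0.0387, adjusted p = 1.13e-05). Both human lines had all treated libraries above all untreated ones.

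In NIH3T3 cells given digitonin Itpr1 had 5.33 and 5.46 TPM, against 2.06 and 2.24 TPM untreated (log2 fold change 1.02, SE 0.0528, adjusted p = 1.78e-13). Itpr3 had 24.3 and 23.96 TPM, against 16.5 and 16.1 TPM untreated (log2 fold change 0.53, SE 0.0398, adjusted p = 9.8e-11). Both rises belong to the comparison whose untreated libraries stood apart. The untreated libraries of the AP20187 experiment held 8.45 and 8.57 TPM of Itpr1 and 33.8 and 34.7 TPM of Itpr3. Against those, digitonin-treated cells were -0.57 and -0.49 on the log2 scale. Itpr3 also turned, to -0.11, after removal of the length trend. LLC cells given digitonin had 4.94 and 4.73 TPM of Itpr1, against 3.73 and 4.11 TPM untreated (log2 fold change 0.25, SE 0.0892, adjusted p = 0.0348), a call lost without untreated replicate 1 or either digitonin replicate (adjusted p from 0.0745 to 0.171).

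With GSDMD, Itpr3 had 38.6 and 39.8 TPM in LLC cells given 4OHT against 43.9 and 43.4 TPM untreated (-0.15, adjusted p = 0.00399). It had 33.5 and 35.5 TPM in NIH3T3 cells given 4OHT against 38.7 and 37.4 TPM untreated (-0.14, adjusted p = 0.0038). The directions turned after median centring, to 0.000849 in LLC and 0.13 in NIH3T3 cells, and the NIH3T3 call was lost without 4OHT replicate 1 (adjusted p = 0.0772). Itpr1 in LLC GSDMD cells had 5.77 and 5.26 TPM with 4OHT against 7.07 and 6.42 TPM untreated (-0.25, adjusted p = 0.0216). That fall was 0.12 after quantile normalization and was lost without untreated replicate 1 (adjusted p = 0.143) or 4OHT replicate 2 (adjusted p = 0.133). All 3 of these falls were smaller than or level with the median of all genes in their comparisons, -0.25 in LLC and -0.29 in NIH3T3 GSDMD cells.

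Among the sensors, Stim1, whose protein senses a drop of ER calcium and gates ORAI channels, rose in 3 of 12 comparisons and fell in 1, and Stim2, which responds to smaller drops, rose in 3 and fell in 6. After quantile normalization or median centring Stim1 was called higher in 7 and lower in 0, and after removal of the length trend higher in 7 of 10. Stim1 had 8.18 and 7.74 TPM in LLC GSDMD cells given 4OHT, against 5.62 and 4.93 TPM untreated (log2 fold change 0.52, SE 0.109, adjusted p = 0.000857). It had 11.03 and 11.7 TPM in NIH3T3 cells given digitonin, against 7.42 and 7.97 TPM untreated (log2 fold change 0.51, SE 0.0706, adjusted p = 1.45e-06). The groups did not overlap in either, and against the untreated libraries of the AP20187 experiment, which held 14.4 and 13.7 TPM, the digitonin change was -0.28. LLC cells given digitonin had 6.99 and 8.50 TPM, against 6.61 and 5.52 TPM untreated (0.31, adjusted p = 0.0334), a call lost without untreated replicate 2 (0.20, adjusted p = 0.222) or digitonin replicate 2 (0.18, adjusted p = 0.262). In BxPC3 cells STIM1 had 7.40 and 6.78 TPM with digitonin, against 9.61 and 9.54 TPM untreated (log2 fold change -0.39, SE 0.0570, adjusted p = 0.000548). That fall lay near the BxPC3 median of -0.37 and turned to 0.030 after quantile normalization and 0.046 after median centring.

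Stim2 fell in NIH3T3 GSDMD cells, with 15.8 and 16.2 TPM given 4OHT against 21.4 and 22.3 TPM untreated (log2 fold change -0.42, SE 0.0621, adjusted p = 2.52e-06). It also fell in BxPC3 cells, with 7.77 and 7.83 TPM given digitonin against 13.9 and 13.7 TPM untreated (log2 fold change -0.75, SE 0.0713, adjusted p = 4.99e-05). In siCTR cells it had 17.6 and 17.1 TPM with AP20187 against 19.9 and 23.2 TPM untreated (-0.29, adjusted p = 0.000325; -0.19 without untreated replicate 2). The p65ko cells had 16.6 and 17.2 TPM with AP20187 against 20.2 and 20.5 TPM untreated (-0.25, adjusted p = 0.00155). The noko cells had 14.3 and 14.4 TPM with AP20187 against 16.8 and 17.8 TPM untreated (-0.25, adjusted p = 0.00117, turning to 0.014 after quantile normalization). HT29 cells had 14.7 and 14.4 TPM with digitonin against 16.5 and 19.1 TPM untreated (-0.27, adjusted p = 0.0128). The HT29 fall was lost without digitonin replicate 2 (adjusted p = 0.0606) or untreated replicate 2 (-0.17, adjusted p = 0.0567). Under quantile normalization or median centring 2 of these 6 falls passed.

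Stim2 rose in NIH3T3 cells given digitonin, with 18.8 and 18.4 TPM against 13.8 and 14.1 TPM untreated (log2 fold change 0.39, SE 0.0621, adjusted p = 8.42e-06). Against the untreated libraries of the AP20187 experiment (20.2 and 17.97 TPM) the change was -0.033. It also rose in LLC cells given digitonin (0.20, adjusted p = 0.0329) and in LLC GSDMD cells (0.19, adjusted p = 0.0238). The LLC digitonin libraries held 12.8 and 13.2 TPM treated and 11.9 and 10.6 TPM untreated, and that call was lost without untreated replicate 2 (0.11) or either digitonin replicate (adjusted p from 0.0707 to 0.24). The LLC GSDMD libraries held 10.5 and 9.92 TPM treated and 9.41 and 8.31 TPM untreated, and the call was lost without untreated replicate 2 (0.11, adjusted p = 0.222) or 4OHT replicate 1 (adjusted p = 0.134). As deposited, Stim1 and Stim2 were thus both called higher in the 2 digitonin comparisons of mouse cells and in LLC GSDMD cells. Both were called lower in BxPC3 cells. The limits given above for the single calls apply to these pairs of calls.

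Orai3, a channel subunit that also forms store-independent channels with Orai1, had the largest falls of all members. LLC GSDMD cells given 4OHT held 5.52 and 6.43 TPM, against 20.3 and 19.7 TPM untreated (log2 fold change -1.59, SE 0.104, adjusted p = 2.6e-08). LLC cells given digitonin held 8.16 and 6.28 TPM, against 15.5 and 15.2 TPM untreated (log2 fold change -1.001, SE 0.104, adjusted p = 1.01e-05). NIH3T3 GSDMD cells held 6.69 and 6.64 TPM with 4OHT, against 13.8 and 13.1 TPM untreated (log2 fold change -0.92, SE 0.0782, adjusted p = 7.71e-10). In each of these 3 comparisons every treated library lay far below every untreated one. NIH3T3 cells given digitonin held 6.27 and 6.14 TPM, against 8.77 and 7.94 TPM untreated (log2 fold change -0.38, SE 0.0783, adjusted p = 0.000211). That fall was -0.85 against the untreated libraries of the AP20187 experiment, which held 12.2 and 11.9 TPM.

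After MLKL dimerization in NIH3T3 cells the falls of Orai3 lay between -0.68 and -0.36. The cells in complete medium held 7.49 and 7.67 TPM with AP20187, against 10.03 and 10.03 TPM untreated (log2 fold change -0.36, SE 0.0780, adjusted p = 0.00116). The siPKC library held 7.91 TPM, against 11.5 and 12.5 TPM untreated (log2 fold change -0.54, SE 0.0960, adjusted p = 9.53e-05). The siCTR cells held 5.53 and 5.27 TPM, against 9.15 and 8.61 TPM untreated (log2 fold change -0.63, SE 0.0782, adjusted p = 6.11e-07). The p65ko cells held 6.13 and 5.23 TPM treated and 8.47 and 8.74 TPM untreated (log2 fold change -0.53, SE 0.0781, adjusted p = 8.72e-06). The noko cells held 5.77 and 5.36 TPM treated and 9.63 and 9.36 TPM untreated (log2 fold change -0.68, SE 0.0779, adjusted p = 2.01e-07). LLC MLKL cells held 21.05 and 17.9 TPM with AP20187 and 21.4 and 21.9 TPM untreated, which did not overlap but did not pass (log2 fold change -0.15, SE 0.104, adjusted p = 0.462). In total Orai3 fell in 9 of 10 mouse comparisons of permeabilized cells, and in 9 as well under each other scaling, filter and model tried.

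In the human lines ORAI3 did not follow the mouse gene. BxPC3 cells given digitonin held 14.04 and 13.4 TPM, against 7.61 and 8.09 TPM untreated (log2 fold change 0.73, SE 0.0884, adjusted p = 0.000186), a rise with no overlap, in a comparison where most genes fell. HT29 cells, with little ORAI3, held 1.32 and 1.40 TPM with digitonin and 1.86 and 1.47 TPM untreated (-0.17, adjusted p = 0.135), which passed as lower without untreated replicate 2 (-0.28, adjusted p = 0.0396). The doses and times of digitonin differed between the mouse and human lines, so their values are set side by side only.

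Orai1, the pore-forming subunit of the calcium release-activated channel, fell in 6 mouse comparisons and in HT29 cells. NIH3T3 GSDMD cells given 4OHT held 11.1 and 10.8 TPM, against 16.9 and 17.6 TPM untreated (log2 fold change -0.61, SE 0.0944, adjusted p = 5.79e-06). LLC GSDMD cells held 3.43 and 2.66 TPM, against 4.45 and 6.08 TPM untreated (log2 fold change -0.62, SE 0.144, adjusted p = 0.00156). NIH3T3 cells given digitonin held 12.7 and 13.6 TPM, against 21.97 and 18.1 TPM untreated (log2 fold change -0.57, SE 0.0942, adjusted p = 1.58e-05). The change was -0.071 and no longer past the threshold against the untreated libraries of the AP20187 experiment (13.5 and 14.1 TPM). The groups were separate in all 3. In p65ko cells Orai1 had 9.15 and 9.53 TPM with AP20187 against 14.3 and 13.6 TPM untreated (-0.53, adjusted p = 6.83e-05). Noko cells had 9.69 and 10.1 TPM with AP20187 against 12.6 and 13.4 TPM untreated (-0.36, adjusted p = 0.00219). In siCTR cells the levels were 11.7 and 12.1 TPM with AP20187 against 16.9 and 17.1 TPM untreated (-0.48, adjusted p = 0.000154). HT29 cells given digitonin held 14.6 and 13.5 TPM of ORAI1, against 17.4 and 17.5 TPM untreated (-0.29, adjusted p = 0.00639). BxPC3 cells held 42.6 and 38.1 TPM, against 40.7 and 41.04 TPM untreated (-0.02, not past the threshold).

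Orai1 was not called in the other 4 mouse comparisons. The NIH3T3 MLKL cells held 9.11 and 12.1 TPM with AP20187 and 11.8 and 12.4 TPM untreated (-0.18, adjusted p = 0.145), and passed as lower without AP20187 replicate 2 (-0.37, adjusted p = 0.00484). The single treated siPKC library held 10.6 TPM, against 12.9 and 12.9 TPM untreated (-0.26, adjusted p = 0.0703). LLC cells given digitonin held 4.68 and 5.44 TPM and untreated ones 5.74 and 7.34 TPM (-0.31, adjusted p = 0.09), and passed without untreated replicate 1 (-0.46, adjusted p = 0.0378). LLC MLKL cells held 11.2 and 9.75 TPM with AP20187 and 9.89 and 9.38 TPM untreated (0.11, adjusted p = 0.735). The number of Orai1 falls depended on the scaling, with 7 of 12 as deposited, 4 after quantile normalization, 5 after median centring and 4 of 10 in mouse cells after removal of the length trend. ORAI1 in BxPC3 cells turned to 0.34 and 0.41 under the first 2 of these and was then called higher.

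Removing calcium from the medium tests whether the response needs extracellular calcium, the ion these genes handle. In NIH3T3 MLKL cells in calcium-free DMEM, 0 of 9 tested members passed as higher or lower after AP20187, where 5.69% of all 11574 tested genes passed (limma). Beside so low a share of all genes, that count of 0 says little of the members. Of the 9, 1 (Itpr3) had an unadjusted p under 0.05. The members' log2 fold changes lay between -0.06 (Stim1) and 0.13 (Atp2b4). The response in calcium-free medium differed from that in complete medium for 5 of 9 members, 4 lower and 1 higher, where 21.9% of all genes differed. Atp2a2 had 175 and 167 TPM with AP20187 and 168 and 164 TPM untreated in calcium-free medium, against 199.8 and 198 TPM with AP20187 and 147 and 149.7 TPM untreated in complete medium (difference -0.38, SE 0.0432, adjusted p = 1.03e-06). Atp2b1 had 39.7 and 37.8 TPM with AP20187 and 41.4 and 39.2 TPM untreated in calcium-free medium, against 58.7 and 55.01 TPM with AP20187 and 47.2 and 49.2 TPM untreated in complete medium (difference -0.29, SE 0.0673, adjusted p = 0.00364). Orai3 had 8.08 and 8.67 TPM with AP20187 and 7.36 and 9.11 TPM untreated in calcium-free medium, against 7.49 and 7.67 TPM with AP20187 and 10.03 and 10.03 TPM untreated in complete medium (difference 0.39, SE 0.110, adjusted p = 0.0142). In each, the treated and untreated pairs were apart in complete medium and close or overlapping in calcium-free medium.

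Itpr1 (difference -0.26, SE 0.0729, adjusted p = 0.0125) and Itpr3 (difference -0.16, SE 0.0556, adjusted p = 0.0452) also responded less in calcium-free medium. The differences for Atp2a2 and Atp2b1 held without any single library. Those of the other 3 did not: Orai3 was lost without calcium-free untreated replicate 1 (0.25, adjusted p = 0.113) or treated replicate 2 (adjusted p = 0.0665), and Itpr1 without calcium-free untreated replicate 1 (adjusted p = 0.0556) or treated replicate 1 (adjusted p = 0.0578). Itpr3 was lost without complete-medium untreated replicate 1 or 2, complete-medium treated replicate 2 (-0.094), calcium-free untreated replicate 1 or 2, or calcium-free treated replicate 1 (adjusted p from 0.0517 to 0.233). Itpr3 was also lost after quantile normalization, median centring and removal of the length trend (-0.15 to -0.074). With only these 8 libraries in the fit Orai3, Itpr1 and Itpr3 did not pass (adjusted p = 0.0889, 0.0884 and 0.196), nor did Orai3 (0.29, adjusted p = 0.0546) and Itpr1 (-0.17, adjusted p = 0.113) after removal of the length trend. Orai1, not past the threshold (0.21, adjusted p = 0.295), passed without complete-medium treated replicate 2 (0.39, adjusted p = 0.0226).

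The medium alone also moved the members. Untreated MLKL cells in calcium-free medium differed from those in complete medium for 6 of 9 members, 3 higher and 3 lower, where 36.3% of all genes differed. Atp2a2 (0.16, adjusted p = 0.000231), Itpr3 (0.22, adjusted p = 0.000119) and Itpr1 (0.23, adjusted p = 0.00137) were higher, and Atp2b1 (-0.25, adjusted p = 0.000252), Orai3 (-0.26, adjusted p = 0.0111) and Orai1 (-0.28, adjusted p = 0.0254) lower. Untreated Itpr3 had 35.9 and 37.1 TPM in calcium-free against 30.9 and 31.3 TPM in complete medium, and untreated Itpr1 7.92 and 7.62 against 6.40 and 6.55 TPM. The untreated calcium-free levels of Atp2a2, Itpr1, Itpr3, Orai1 and Orai3 thus lay on the same side of complete medium as the MLKL response, so the response there started from a shifted level, while Atp2b1 was shifted against its response. The Orai1 call was lost without any 1 of its 4 libraries (adjusted p from 0.055 to 0.137). The Orai3 call was lost without complete-medium untreated replicate 1 or 2 or calcium-free untreated replicate 1, which moved it to -0.13 (adjusted p from 0.0512 to 0.281), and without calcium-free untreated replicate 2 it was -0.40. Both calls were also lost after quantile normalization, median centring and removal of the length trend, with Orai1 at -0.21 to -0.17 and Orai3 at -0.19 to -0.16. Stim1 passed as higher under all 3 of these (0.24 to 0.26).

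**Figure D4:**
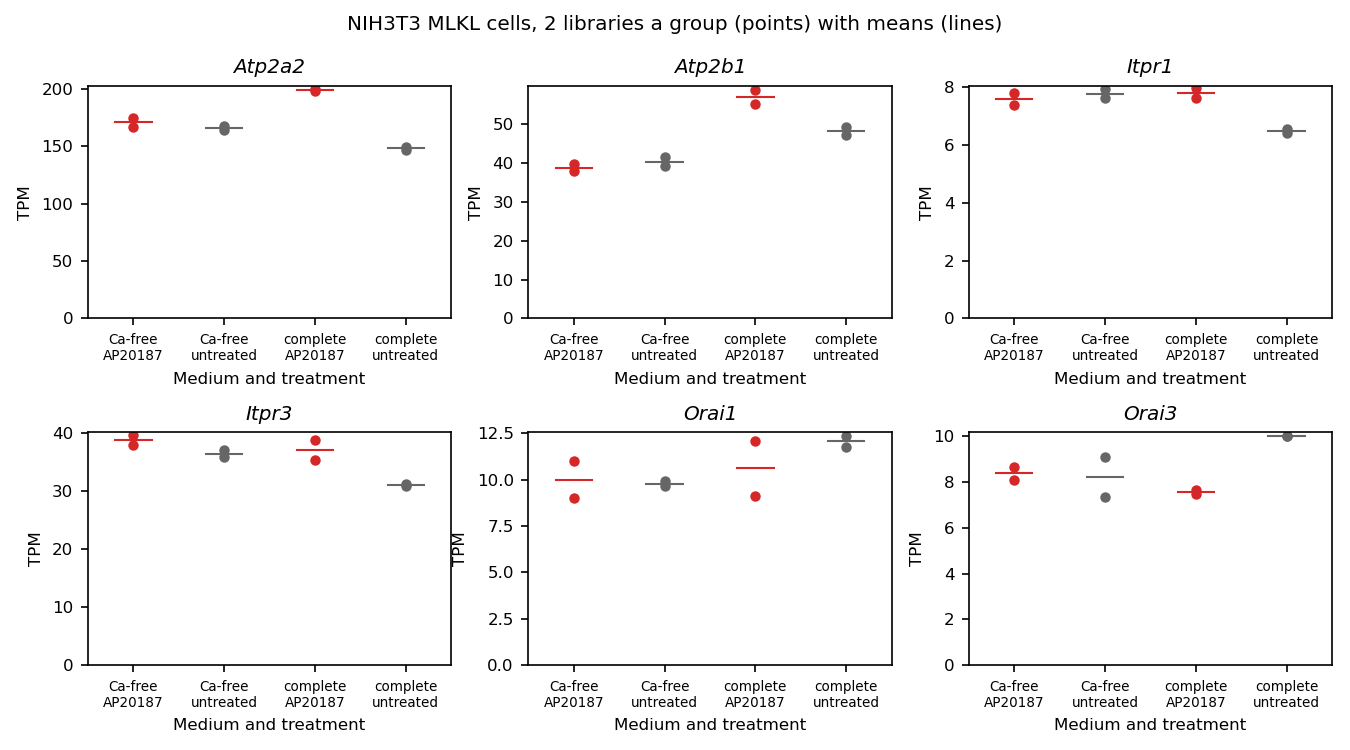
TPM of 6 members in NIH3T3 MLKL libraries, with groups from left to right: calcium-free with AP20187, calcium-free untreated, complete with AP20187, complete untreated. Atp2a2 separates by treatment in complete medium (199.8 and 198 against 147 and 149.7 TPM) and lies close together in calcium-free medium (175 and 167 against 168 and 164 TPM).

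The drugs without a construct passed for none of the members by limma. AP20187 in parental NIH3T3 cells gave 0 of 9 calls, where 0.304% of all genes were called, and 4OHT in parental LLC cells 0 of 8, where 0.864% were called. With shares this low the counts of 0 say little of the members. At an unadjusted p under 0.05 there were 0 in NIH3T3 and 2 in LLC cells. Itpr3 in parental LLC cells (0.19) passed with no filter on low values (adjusted p = 0.0416) and with at least 5 TPM required (adjusted p = 0.0478). Atp2b1 had 61.4 and 57.4 TPM with AP20187 and 63.1 and 58.9 TPM untreated in parental NIH3T3 cells, and 40.5 and 40.6 TPM with 4OHT and 38.2 and 39.3 TPM untreated in parental LLC cells. Orai3 had 13.8 and 12.3 TPM with AP20187 and 12.2 and 11.9 TPM untreated in NIH3T3 cells, and 18.98 and 19.95 TPM with 4OHT and 18.04 and 19.8 TPM untreated in LLC cells. The response of MLKL cells differed from that of parental NIH3T3 cells for 5 of 9 members, where 20.5% of all genes differed. These were Atp2a2 (0.44, adjusted p = 9.78e-08), Itpr1 (0.31, adjusted p = 0.00373), Itpr3 (0.29, adjusted p = 0.000665) and Atp2b1 (0.27, adjusted p = 0.00565) upward, and Orai3 (-0.47, adjusted p = 0.00399) downward. With only these 8 libraries in the fit Atp2b1 did not pass (adjusted p = 0.0616), and after removal of the length trend Itpr1 (0.12, adjusted p = 0.275) and Itpr3 (0.12, adjusted p = 0.183) did not. The response of LLC GSDMD cells differed from that of parental LLC cells for 7 of 8, where 71.8% of all genes differed. These were Atp2b1 (1.16, adjusted p = 3.82e-08), Stim1 (0.49, adjusted p = 0.0134) and Atp2a2 (0.49, adjusted p = 4.76e-06) upward, and Orai3 (-1.63, adjusted p = 1.28e-06), Orai1 (-0.63, adjusted p = 0.0163), Itpr1 (-0.50, adjusted p = 0.00362) and Itpr3 (-0.34, adjusted p = 0.000156) downward. Of these, Orai1 was lost without LLC parental untreated replicate 1, parental 4OHT replicate 1, GSDMD untreated replicate 2 or GSDMD 4OHT replicate 2 (adjusted p from 0.0505 to 0.0749), and Stim1 without GSDMD untreated replicate 2 (adjusted p = 0.0539). Stim2 passed upward without GSDMD untreated replicate 1 (adjusted p = 0.0305), and also after quantile normalization, median centring and removal of the length trend (0.39 to 0.53). Under those 3 Orai1 was lost (-0.43 to -0.19), as were Itpr1 after quantile normalization (-0.093, adjusted p = 0.521) and Itpr3 after median centring (-0.15, adjusted p = 0.0538). In the NIH3T3 comparison Orai1 passed downward without MLKL treated replicate 2 and Stim2 upward without parental untreated replicate 2 (adjusted p = 0.0147 and 0.0287). No such parental control is among the NIH3T3 GSDMD or LLC MLKL libraries used here.

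The responses to AP20187 of siPKC and p65ko cells were set against those of their controls. The siPKC and siCTR responses differed for 0 of 9 members (limma), where 8.29% of all genes differed, with 2 at an unadjusted p under 0.05. Those of p65ko and noko cells differed for 0 of 9 (limma), where 4.10% differed, with 0 at an unadjusted p under 0.05. The Atp2b1 difference was -0.09 (SE 0.0753) for siPKC minus siCTR and 0.07 (SE 0.0672) for p65ko minus noko, and that of Orai3 was 0.08 (SE 0.123) and 0.15 (SE 0.110). With the length trend removed Atp2b1 passed as lower for siPKC minus siCTR (-0.19, adjusted p = 0.0363). These counts of 0 stand beside low shares of all genes and say little of the members. Stim2 came nearest, at 0.29 for siPKC minus siCTR (adjusted p = 0.0686), and passed without siCTR untreated replicate 1 (0.40) or siPKC untreated replicate 2 (0.36).

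The manipulated cells did differ at rest. Untreated siPKC cells had higher Stim1 than siCTR cells, with 19.7 and 21.6 TPM against 12.9 and 11.9 TPM (log2 fold change 0.69, SE 0.0706, adjusted p = 6.79e-08). A total of 5 of 9 members differed, where 45.6% of all genes did. Orai3 had 11.5 and 12.5 TPM in untreated siPKC cells against 9.15 and 8.61 TPM in siCTR cells (0.40, adjusted p = 0.000295). Orai1 had 12.9 and 12.9 TPM in siPKC against 16.9 and 17.1 TPM in siCTR cells (-0.37, adjusted p = 0.00282). The channel subunits thus moved opposite ways. Stim2 (0.31, adjusted p = 0.00034) and Itpr3 (0.22, adjusted p = 0.000135) were higher too. Stim2 was 0.21 without siCTR untreated replicate 1 and was lost with only these 4 libraries (adjusted p = 0.06), and Atp2b1 passed as lower without siPKC untreated replicate 2 (adjusted p = 0.023). After quantile normalization, median centring and removal of the length trend Atp2b1 (-0.13 to -0.12) and Itpr1 (-0.17 to -0.13) passed as lower. Untreated p65ko cells differed from noko cells for 5 of 9 members, where 47.0% of all genes did. Atp2b1 had 43.7 and 42.96 TPM in p65ko cells against 58.9 and 58.8 TPM in noko cells (log2 fold change -0.43, SE 0.0476, adjusted p = 2.59e-07). Itpr3 (-0.34, adjusted p = 4.73e-07), Itpr1 (-0.19, adjusted p = 0.00416) and Atp2a2 (-0.08, adjusted p = 0.031) were lower as well, with Stim2 higher (0.22, adjusted p = 0.00569). The Atp2a2 difference was lost without any 1 of its 4 libraries (adjusted p from 0.0632 to 0.16), and that of Stim2 without noko untreated replicate 1 (adjusted p = 0.065) and after quantile normalization (0.14, adjusted p = 0.072) or median centring (0.15, adjusted p = 0.0574). Stim1 (-0.21 to -0.18) and Orai3 (-0.25 to -0.20) passed as lower under those scalings and with the length trend removed. Atp2b1 therefore started lower in p65ko cells, and its treated p65ko libraries stayed below the treated noko libraries.

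The NIH3T3 digitonin comparison needs its untreated libraries beside those of the AP20187 experiment, since both are untreated parental NIH3T3 cells. Between these 2 untreated sets, digitonin experiment minus AP20187 experiment, 8786 of 11546 genes differed, among them 8 of the 9 tested members. Itpr1 differed by -1.59, Itpr3 by -1.02, Atp2b1 by -0.99, Stim1 by -0.79, Atp2a2 by -0.79, Orai3 by -0.48, Stim2 by -0.43 and Orai1 by 0.50 on the log2 scale. The 2 untreated LLC sets differed too, digitonin experiment minus 4OHT experiment, in 7474 of 11199 genes and in 4 of 8 members, by 0.29 for Stim2, 0.23 for Atp2b1, -0.11 for Itpr3 and -0.29 for Orai3. In NIH3T3 cells the difference followed transcript length, with a median of 0.05 for genes whose longest transcript is under 2000 bases, -0.28 between 2000 and 5000 bases and -0.73 at 5000 bases or more. The digitonin response in NIH3T3 cells ran the other way, with medians of -0.29, 0.00 and 0.48 in the same classes, whereas in LLC cells it was nearly level at -0.05, -0.07 and -0.02. The longest transcripts of Orai1 and Orai3 have 1875 and 2141 bases. Those of Stim1 and Stim2 have 4362 and 4934 bases, and those of Atp2a2, Atp2b1, Itpr3 and Itpr1 have 5674, 7130, 8990 and 9870 bases. Against the AP20187 experiment's untreated libraries the digitonin calls for Atp2b1 and Orai3 kept their direction and their side of the threshold, while Atp2a2, Stim1, Stim2, Itpr1 and Itpr3 changed sign. The part of transcript length in the NIH3T3 digitonin values was not tested beyond these numbers and the fit with the length trend removed, in which Atp2b1 was 0.97 and Orai3 -0.20.

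**Figure D5:**
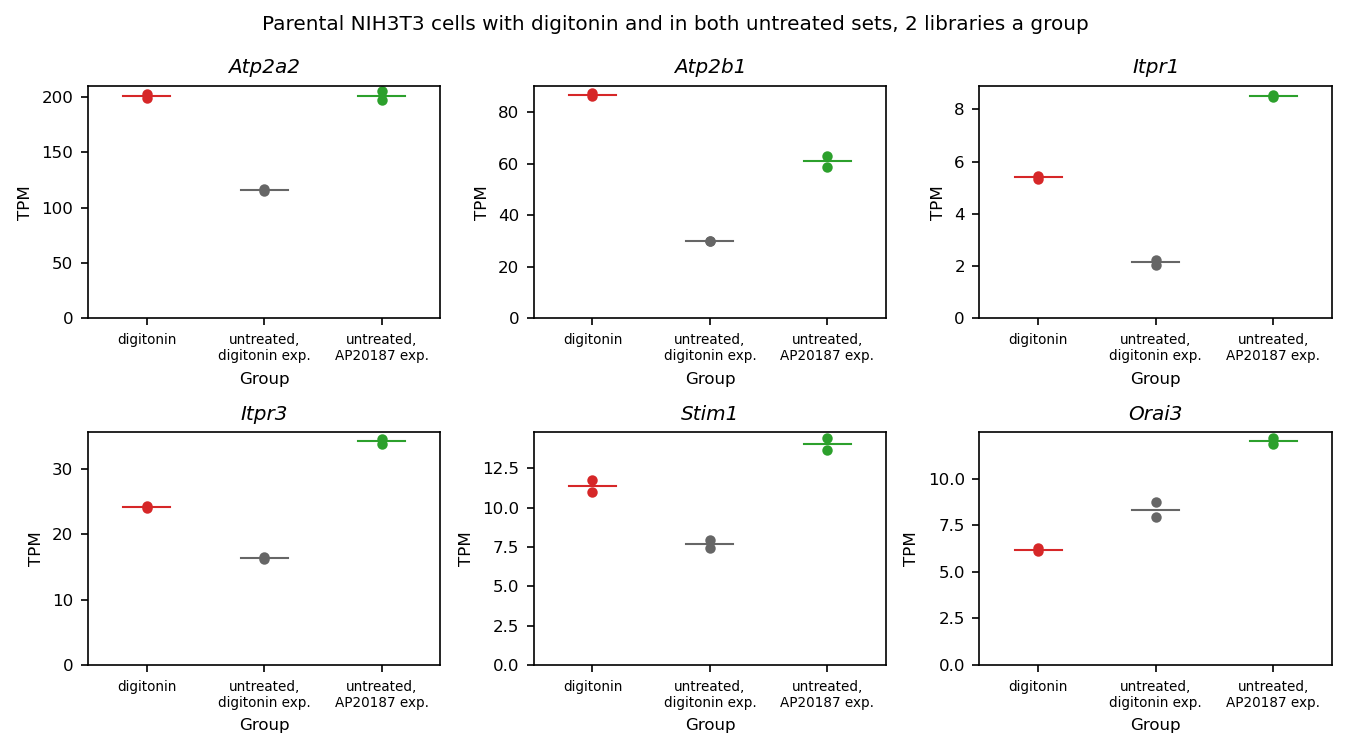
TPM of 6 members in NIH3T3 parental libraries: digitonin, untreated of the digitonin experiment, and untreated of the AP20187 experiment, 1 point per library. Itpr1 held 5.33 and 5.46 TPM with digitonin, against 2.06 and 2.24 TPM in its own untreated libraries and 8.45 and 8.57 TPM in the other untreated set, and Orai3 with digitonin (6.27 and 6.14 TPM) lay below both sets.

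The human lines got the same digitonin dose and time, so their responses could be set against each other. They differed for 6 of 8 tested members, HT29 minus BxPC3, 2 higher and 4 lower, where 64.1% of all genes differed. ORAI3 (difference -0.91, SE 0.123, adjusted p = 0.000783), ATP2A2 (difference -0.58, SE 0.0474, adjusted p = 8.46e-05), ITPR3 (difference -0.32, SE 0.0537, adjusted p = 0.00213) and ORAI1 (difference -0.27, SE 0.0911, adjusted p = 0.0363) responded lower in HT29 than in BxPC3 cells, and STIM2 (difference 0.48, SE 0.0994, adjusted p = 0.00533) and STIM1 (difference 0.26, SE 0.0776, adjusted p = 0.0244) higher. The median difference of all genes was 0.23, and after median centring the STIM1 difference was -0.00347. The STIM2 call was lost after quantile normalization (0.24, adjusted p = 0.0924) and median centring (0.22, adjusted p = 0.115), and the STIM1 call after quantile normalization as well (0.0028). STIM1 was lost without either HT29 digitonin replicate, HT29 untreated replicate 2 or either BxPC3 untreated replicate (adjusted p from 0.062 to 0.0737). ORAI1 was lost without HT29 digitonin replicate 2, either HT29 untreated replicate, BxPC3 digitonin replicate 1 or either BxPC3 untreated replicate (adjusted p from 0.0734 to 0.109). ATP2B1, not past the threshold (0.17, adjusted p = 0.0645), passed without BxPC3 digitonin replicate 2 (adjusted p = 0.0266). ATP2B1 and ITPR3 rose in both lines, STIM2 fell in both, and ATP2A2 and ORAI3 rose in BxPC3 cells, with values of -0.05 and -0.17 in HT29 cells.

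Of 107 other genes of calcium transport, buffering and sensing, 97 were found in the mouse and 103 in the human table, and between 60 and 65 were tested in each comparison. They were listed by function, with earlier results of these data known. After AP20187 in NIH3T3 MLKL cells 12 of 61 rose and 8 fell, where 15.8% of all tested genes rose and 16.5% fell. In LLC MLKL cells 4 of 65 rose and 0 fell (5.48% and 2.08% of all genes). Percentages in this paragraph are shares of all tested genes as deposited, and shares after centring are not reported here. In calcium-free medium 0 of 62 rose and 1 fell, where 5.69% of all genes were called in either direction. The gene that fell was the mitochondrial uptake regulator Micu2 (-0.23, limma adjusted p = 0.00851). The drugs in parental cells called 0 of 62 in NIH3T3 (0.304% of all genes) and 0 of 65 in LLC cells (0.864% of all genes). In the comparisons whose median lay below 0 the counts depended on scaling. The siCTR cells had 6 of 60 higher and 33 lower as deposited (13.7% and 51.8% of all genes), and 19 and 12 after median centring. As deposited 9 of 62 rose and 38 fell in NIH3T3 GSDMD cells (20.0% and 58.6% of all genes), which became 26 and 19 with centred libraries. For LLC GSDMD cells the numbers were 17 and 34 of 61 (27.9% and 54.0% of all genes, 20 and 28 centred). Of the human lines they were 9 and 27 of 62 in HT29 cells (16.5% and 44.0% of all genes, 17 and 16 centred). In BxPC3 cells they were 11 and 45 of 63 (23.7% and 56.9% of all genes, 24 and 26 centred). In siPKC cells they were 4 and 17 of 62 (10.5% and 37.5% of all genes, 16 and 8 centred). In p65ko cells they were 4 and 34 of 63 (8.99% and 50.4% of all genes, 19 and 6 centred). In noko cells they were 6 and 36 of 62 (10.6% and 55.5% of all genes, 26 and 7 centred). With digitonin, NIH3T3 cells had 26 of 60 higher and 18 lower (39.3% and 34.2% of all genes, 18 and 30 centred). LLC cells given digitonin had 10 and 17 of 61 under both (20.3% and 32.2% of all genes).

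A pair of these genes, singled out after their values were seen, rose in all 12 comparisons of permeabilized cells as deposited, after quantile normalization and after median centring. As deposited, 1.95% of the 9929 genes tested in all 10 mouse comparisons rose in all 10, and the share over all 12 is not reported here. Itprip encodes a protein that binds inositol trisphosphate receptors and modulates their calcium sensitivity. It had 146 ± 0.469 TPM against 24.8 ± 0.294 TPM untreated (2.51, adjusted p = 4.04e-12) in LLC GSDMD cells given 4OHT (SD, n = 2 each). ITPRIP had 58.3 ± 0.617 TPM against 16.8 ± 0.904 TPM untreated (1.74, adjusted p = 4.13e-07) in BxPC3 cells given digitonin (SD, n = 2 each). Itprip had 127 ± 7.69 TPM against 54.5 ± 0.175 TPM untreated (1.21, adjusted p = 4.94e-15) in NIH3T3 MLKL cells given AP20187 (SD, n = 2 each). Its response in calcium-free medium differed from that in complete medium by -1.36, adjusted p = 5.5e-13. Itprip thus rose more than any member in each of these 3 comparisons, with a range over the 12 from 0.48 to 2.51. Selenok encodes an ER membrane selenoprotein needed for store-operated entry in immune cells. It ranged from 0.22 to 0.92, with 77.3 ± 0.220 TPM against 40.3 ± 0.363 TPM untreated (0.92, adjusted p = 1.5e-05) in HT29 cells (human gene) and 109 ± 1.09 TPM against 61.8 ± 1.04 TPM untreated (0.81, adjusted p = 7.48e-09) in LLC GSDMD cells.

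A further 4 of these genes, also chosen after their values were seen, were among those called in a single direction in 9 or more of the 12 comparisons. Apart from the pair above, the others called so often as deposited all fell. Vdac3 was lower in 10, and Erlin2, Tmco1, Letm1, Vdac1, Sri and Rcn2 were each lower in 9. Hspa5, an ER chaperone that also buffers calcium, was higher in 10 of 12 and lower in 2 as deposited, and reached 1.22, adjusted p = 9.53e-17 in NIH3T3 cells given digitonin and 0.98, adjusted p = 5.15e-15 in NIH3T3 GSDMD cells. The mechanosensitive cation channel Piezo1 was higher in 9, with 1.18, adjusted p = 9.77e-15 after digitonin and 0.94, adjusted p = 6.4e-13 after GSDMD in NIH3T3 cells. Calm3, 1 of the calmodulin genes, was lower in 11, with -1.25, adjusted p = 1.2e-10 in LLC GSDMD and -1.30, adjusted p = 2.12e-07 in BxPC3 cells. Micu2 was lower in 10, with -1.44, adjusted p = 2.89e-09 in LLC GSDMD and -1.03, adjusted p = 1.52e-13 in NIH3T3 GSDMD cells. In the 10 mouse comparisons Hspa5 was higher in 10, a count reached by 1.95% of the 9929 genes tested in all of them. Piezo1 was higher in 8, a count that 6.83% reached or passed, and Calm3 and Micu2 were each lower in 9, as 6.12% were at least. After removal of the length trend, of the 10 mouse comparisons, Hspa5 was higher in 10, Piezo1 was higher in 8, Calm3 was lower in 6 and Micu2 was lower in 4.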

How the data were processed

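Polyadenylated RNA of 59 cell line libraries in 30 groups was used, with groups taken from the labels. The authors deposited TPM, a unit inferred from library totals from 999910 to 999989 in the mouse table and of 999999 or more in the human one. The submitters' processing notes name Salmon and the genome builds mm10 and hg19, and how the deposited values were made with them is not given in the sources used here. Each of 26 comparisons (15 of treated with untreated cells, 6 differences between responses and 5 of untreated cells) was taken from a limma model (version 3.58.1, with a mean-variance trend) of log2(TPM + 1), in R 4.3.3. A single model was used per line over all its groups, 1 joint model for HT29 and BxPC3 cells, and 1 over all mouse libraries for LLC minus NIH3T3 cells, none with a term for replicate numbers. Testing required 1 TPM in 2 or more of a comparison's libraries. The threshold was 0.05 for the p-value adjusted by Benjamini and Hochberg's method over all tested genes. The scale understates the change of low genes. The code was tested on simulated data.

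The members and lists were chosen with earlier results of these data known. All members could be named in every comparison that tested them, and those not called are given in part by counts alone. From the list of other calcium genes, up to 5 in each direction per comparison could be named, by largest change among those past the threshold with a mean of at least 5 TPM in the higher group. The labels number both treated LLC MLKL libraries 2, so they were numbered in accession order and never paired. Depth cannot be recovered from TPM. The genes most similar to Atp2a2 are not reported here. Positions and lengths came from GENCODE vM21 for mm10, with lengths for 94.6% of mouse genes, and promoters from RefSeq for GRCm38.p6. No promoter was found for Atp2a2 or Itpr1, and no human annotation was used. Alternatives were a pseudocount of 0.1, no filter, a filter of 5 TPM, quantile normalization, median centring, removal of the length trend, a replicate block, a model of each comparison's libraries alone and the omission of single libraries, with other untreated libraries added after the data were seen. Figures were drawn with Python 3.11.15, numpy 2.4.6, pandas 2.3.3 and matplotlib 3.10.9.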

Additional observations from a re-analysis of the deposited data

Results flagged for a closer look

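The values below were singled out because a test of the difference between 2 responses (limma, Benjamini-Hochberg adjusted p under 0.05) passed, 23 in all. They are differences of log2 fold changes, with 2 libraries per group, and nothing that could account for them was weighed. The report gives beside them the single libraries whose absence ends a call.

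For AP20187, NIH3T3 MLKL cells minus parental cells, the differences were 0.44 for Atp2a2, 0.27 for Atp2b1, -0.47 for Orai3, 0.31 for Itpr1 and 0.29 for Itpr3. In calcium-free minus complete medium the same 5 genes had the opposite signs, at -0.38 for Atp2a2, -0.29 for Atp2b1, 0.39 for Orai3, -0.26 for Itpr1 and -0.16 for Itpr3. These contrasts share the MLKL libraries in complete medium, so their signs are not independent.

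For 4OHT, LLC GSDMD cells minus parental cells, they were 0.49 for Atp2a2, 1.16 for Atp2b1, 0.49 for Stim1, -0.63 for Orai1, -1.63 for Orai3, -0.50 for Itpr1 and -0.34 for Itpr3. For digitonin, HT29 minus BxPC3 cells, they were -0.58 for ATP2A2, 0.26 for STIM1, 0.48 for STIM2, -0.27 for ORAI1, -0.91 for ORAI3 and -0.32 for ITPR3.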

How the results depend on the processing

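Treatment calls of members numbered 34 higher and 27 lower. Median centring gave 57 and 16, and quantile normalization 51 and 16, and what moved these counts was not tested. Over the other settings the counts stayed within 1.5 times these, as did the 23 response differences and the 31 untreated differences. Leaving out each of 58 libraries gave 31 to 35 higher and 26 to 28 lower calls, each of 42 gave 20 to 24 response differences, and each of 24 gave 29 to 32 untreated differences. With a pseudocount of 0.1 each of 225 values kept its direction and its side of the threshold. With only the libraries of the comparison 15 calls were lost, and 4 without a filter. With at least 5 TPM required 3 treatment calls were no longer tested and 1 was gained, Itpr3 in parental LLC cells. Same-numbered libraries deviated together weakly at most (correlations from -0.05 to 0.13 over 13 pairs of groups). With 2 libraries per group these correlations cannot tell whether the numbers pair the libraries. A replicate block gave 34 higher and 27 lower calls and 22 response differences. It lost STIM1 and ORAI1 in HT29 minus BxPC3 cells and added Stim2 in siPKC minus siCTR cells.

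These log2 values changed sign, and the cause was not tested. After quantile normalization they were Stim2 0.014 and Itpr1 0.28 in noko cells, Stim1 0.23 and Itpr3 0.15 in p65ko cells, Stim1 0.33, Itpr1 0.30 and Itpr3 0.048 in NIH3T3 GSDMD cells, Itpr1 0.12 in LLC GSDMD cells, ATP2B4 0.38, STIM1 0.030 and ORAI1 0.34 in BxPC3 cells and ATP2B4 -0.27 for the digitonin response of HT29 minus BxPC3 cells. After median centring they were Atp2a2 0.22, Itpr1 0.20 and Itpr3 0.17 in noko cells, Stim1 0.18 and Itpr3 0.17 in p65ko cells, Atp2a2 0.12, Stim1 0.25, Itpr1 0.20 and Itpr3 0.13 in NIH3T3 GSDMD cells, Itpr3 0.000849 in LLC GSDMD cells, ATP2A2 0.12 in HT29 cells, ATP2B4 0.37, STIM1 0.046 and ORAI1 0.41 in BxPC3 cells and STIM1 -0.00347 for HT29 minus BxPC3 cells. With the length trend removed they were Atp2a2 0.20, Itpr1 0.14 and Itpr3 0.11 in noko cells, Stim1 0.19 in p65ko cells, Atp2a2 0.10, Stim1 0.29 and Itpr3 0.018 in NIH3T3 GSDMD cells and Atp2b4 -0.40 and Itpr3 -0.11 in NIH3T3 cells given digitonin. Against the other untreated set, an alternative chosen after seeing the data, NIH3T3 digitonin values were Atp2a2 -0.00125, Stim1 -0.28, Stim2 -0.033, Itpr1 -0.57 and Itpr3 -0.49, with 29 higher and 30 lower treatment calls in all, and in LLC cells Orai1 was then called lower (-0.58). LLC minus NIH3T3 within the digitonin experiments, also chosen after seeing the data, gave Atp2a2 0.20, Atp2b1 0.58 and Itpr1 0.64.

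With 2 libraries per group and no depth, precision rests on the spread shared by all groups of a line. The siPKC library given AP20187 has no replicate and is assumed to vary like the others.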

Other observations

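For 7 members tested in all 13 mouse treatment comparisons, the 3 genes with the most similar log2 fold changes were found among 9858 genes by Pearson's r over those 13 comparisons. This is a description in which the comparisons of a line share a model, and some of them a construct or medium. Nearest to Atp2b1 were Slc39a6 (0.979), Sgms2 (0.978) and Gfod1 (0.976). Nearest to Orai3 were Cyb5rl (0.970), Klhl26 (0.965) and Gtf3c6 (0.963), and to Orai1 Rilpl2 (0.970), Commd5 (0.958) and Pdf (0.952). Stim1 lay nearest to Rnf146 (0.977), Ripk2 (0.939) and Cramp1l (0.934), and Stim2 to Ccdc127 (0.976), BC030336 (0.973) and Zfp143 (0.967). Itpr1 lay nearest to Cd109 (0.972), Utrn (0.967) and Glg1 (0.949), and Itpr3 to Atrn (0.964), Lrba (0.962) and Cmah (0.960). No member was among the 3 nearest genes of another member.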
